A study of Mus musculus with 8 samples.

Results

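The cytochrome P450 genes of families 1, 2 and 3 were described in mouse liver together with the nuclear receptor genes Nr1i2 and Nr1i3 and the aryl hydrocarbon receptor gene Ahr. Members were chosen by gene symbol alone. Among 25697 bead-array probes, of which 23978 carried a gene symbol, 65 probes named 48 member genes, 45 of them cytochromes P450. The rule also asked for Por, the reductase that passes electrons to these enzymes, but 0 probes carried that symbol in the platform table, and Por was not analysed here. Total liver RNA came from 8 male mice aged 13 weeks, 4 wild type and 4 with a knockout of Bgn, which encodes the matrix proteoglycan biglycan. Both groups had a C57BL/6 strain background and one diet, 1 mouse gave 1 array, and the labels do not say which part of Bgn was removed or whether its loss was limited to any cell type. The comparison asks how these transcripts differed between the genotypes.

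Cytochromes P450 of these families are heme enzymes of the endoplasmic reticulum that add oxygen to drugs, toxins, steroids, bile acids and fatty acids. In hepatocytes many are induced through receptors that sense foreign compounds. Ahr is best known for inducing Cyp1 genes, Nr1i2 (PXR) for Cyp3a genes and Nr1i3 (CAR) for Cyp2b and Cyp2c genes. Most members lie in tandem clusters of close relatives, and many differ between the sexes or between the central and portal zones of the lobule.

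The labels were first checked with Bgn. Its deposited intensity, the linear signal before any correction, was 2901 to 4944 in wild type and 169 to 203 in knockout livers, so the groups did not overlap. Per array, 11352 to 11910 probes were detected (detection p under 0.05), and the number of arrays limits the precision. Of the hepatocyte markers, Ttr and Apoa1 were near a log2 intensity of 15.0 in both groups, while Pck1 was at 8.61 in wild type and 8.78 in knockout livers. Quantile normalization sets the brightest probes to nearly the same values on every array, so the likeness for Ttr and Apoa1 carries little information. Of 7 tested hepatocyte markers 3 were above and 4 below 0 (median log2 change -0.027). Serpina1a had the smallest p of that list, with a log2 change of -0.28 (knockout minus wild type, limma unadjusted p = 0.0109, adjusted p = 0.217). The Alb probe was dim (7.56 ± 0.50 in wild type, SD, n = 4) although the gene encodes albumin, the main hepatocyte secretory protein. Of 39 tested marker genes from 8 lists of liver and other cell types, 0 passed between the genotypes (limma, Benjamini-Hochberg adjusted p under 0.05). Macrophage markers were below 0 for 8 of 8 genes (median log2 change -0.20), with summed deposited intensities of 4227 to 6654 in wild type and 4374 to 6066 in knockout livers. Red blood cell markers were below 0 for 4 of 4 genes (median -0.49), and their sums were 24690 to 30767 in wild type and 13802 to 25260 in knockout livers. In whole tissue, fewer cells of a type and less RNA per cell cannot be told apart, and the part of these cells in the results below was not tested.

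Skeletal muscle transcripts stood out on 3 arrays. The summed intensity of the 9 probes of 8 muscle markers reached 44731 on Bgn knockout replicate 2, 29128 on wild type replicate 4 and 10974 on the array of Bgn knockout replicate 1. It was 1195 to 1295 on the other 5 arrays, where Acta1, the gene of skeletal muscle actin, was not above background. Several of the results below are given with and without these arrays, but not all.

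Of the 48 member genes, 30 had at least 1 probe detected on 4 or more of the 8 arrays, which made 42 probes that could be tested, and 38 probes were detected on all 8. On no array was a signal detected for 15 genes. These were Ahr, Cyp1a1, Cyp2b19, Cyp2c38, Cyp2c40, Cyp2c65, Cyp2d12, Cyp2d34, Cyp2j6, Cyp2j11, Cyp2j13, Cyp2r1, Cyp3a16, Cyp3a41a and Cyp3a44. Cyp1b1 and Cyp2c39 were detected on 1 wild type array each, and Cyp2j5 on 1 knockout array, so these 3 genes were not tested. Cyp2d had 6 of 8 genes tested, Cyp2c 6 of 10, Cyp2b 4 of 5, Cyp3a 3 of 6 and Cyp2j 1 of 5. Both Cyp2a genes on the array were tested. The plot of probes by detection shows how uneven the subfamilies were.

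**Figure D1:**
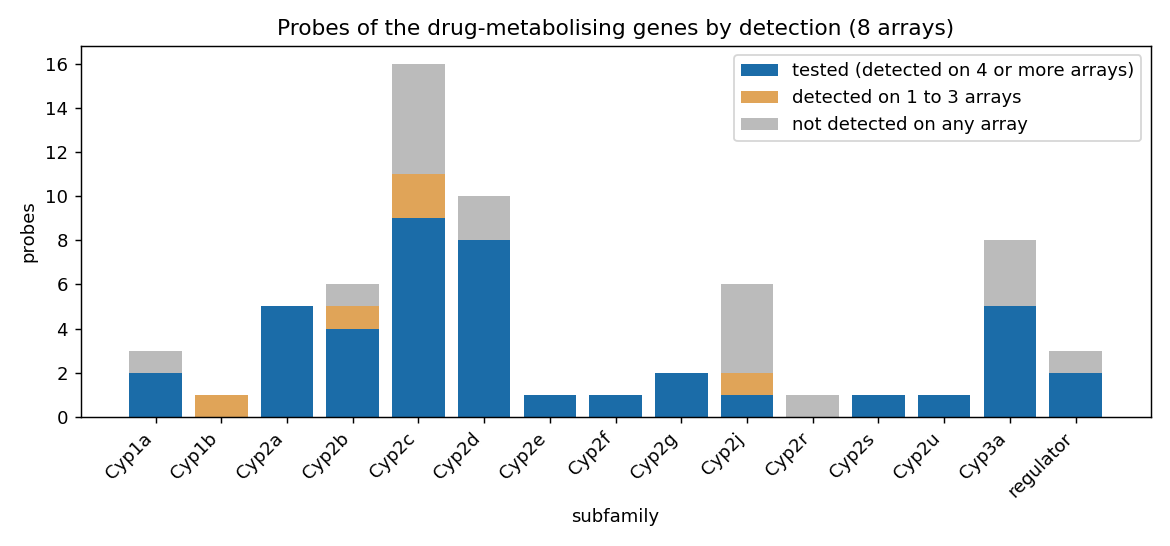
Number of member probes (vertical axis) in each subfamily, split into probes tested, probes detected on 1 to 3 arrays and probes not detected on any of the 8 arrays. All 5 Cyp2a probes were tested, while 4 of 6 Cyp2j probes were not detected on any array.

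Levels within a probe are on the log2 intensity scale after background correction, and levels of different probes are not compared. No member passed the test between genotypes. Of the 42 tested probes, 0 had a limma adjusted p under 0.05, against 127 of 11494 (1.10%) over all tested probes, 0.383% higher and 0.722% lower in the knockout. An unadjusted p under 0.05 was found for 10 member probes (23.8%), 6 higher and 4 lower in the knockout, against 13.3% of all tested probes (6.33% higher and 7.00% lower). With the brightest probe of each gene the figures were 7 of 30 genes (23.3%) and 13.5%. The 4 lower probes were all of Cyp2a5. The 6 higher included Cyp2b13, detected on 2 wild type and 4 knockout arrays, which entered the test through the group where it was higher. The groups did not overlap for 3 of 42 member probes (7.14%), against 8.07% over all tested probes. Of these 3, 1 was higher (3.66% of all tested probes) and 2 were lower (4.40%). Changes were above 0 for 29 of 42 probes, with a median log2 change of 0.13, against 50.9% of all tested probes and a median of 0.0050. By brightest probe, 20 of 30 genes were above 0, against 49.4% of all genes. Of 8 member genes with several tested probes, all probes had the same sign for 5. Leaving out the 3 arrays with muscle transcripts, 0 of 41 tested member probes passed (smallest limma adjusted p = 0.501) and 28 were above 0. Without the 2 arrays with the most muscle transcripts 25 of 41 were above 0, and without wild type replicate 4 alone 26 of 42, with a median log2 change of 0.074.

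**Figure D2:**
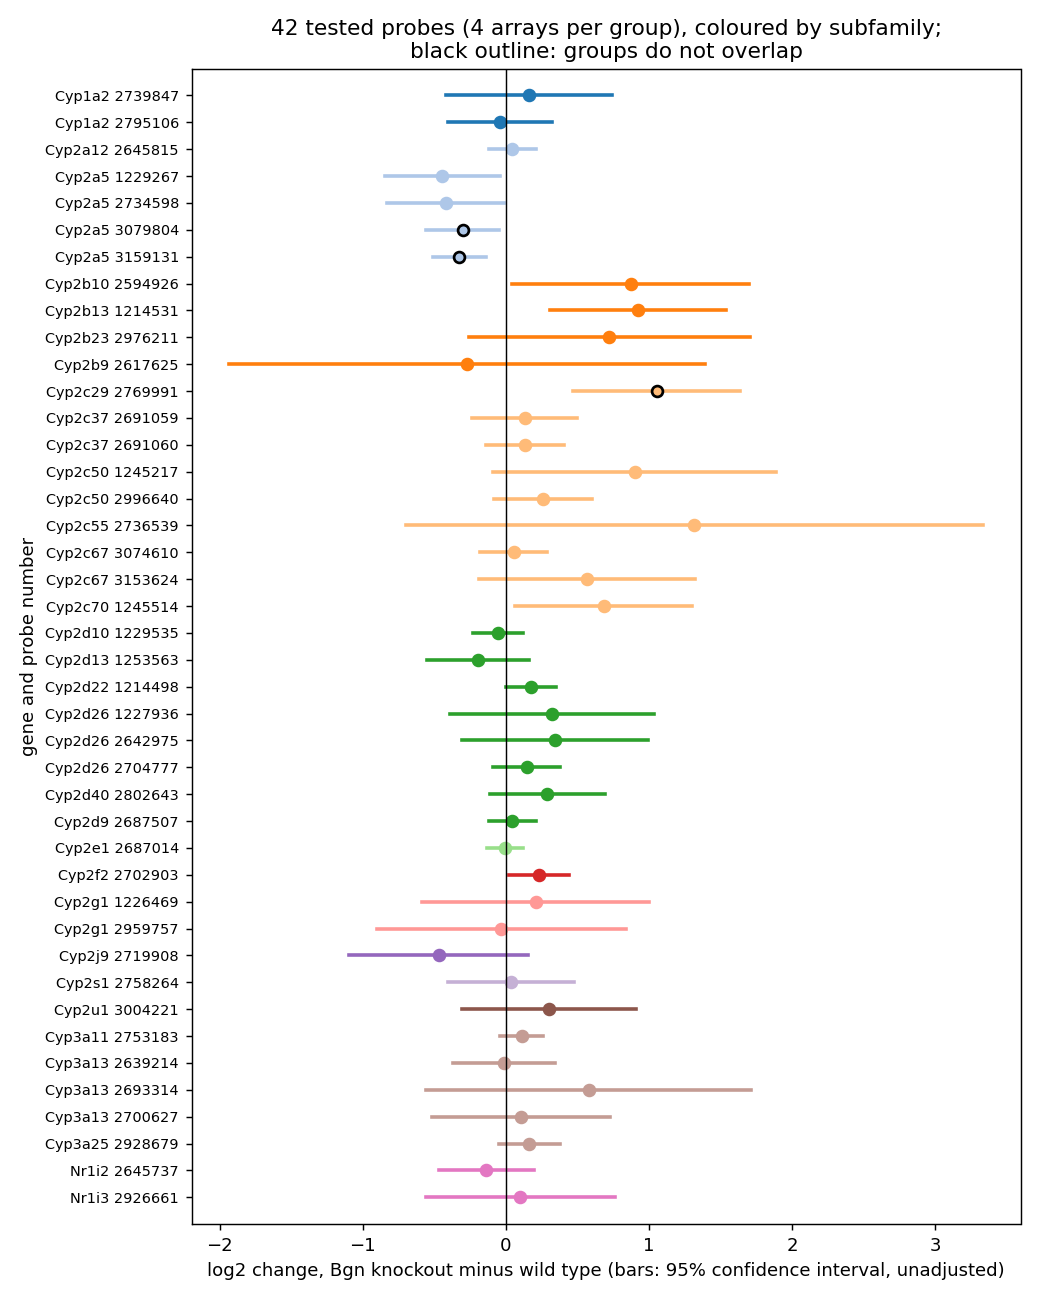
Log2 change (Bgn knockout minus wild type, horizontal axis) for each of the 42 tested probes, with unadjusted 95% confidence intervals and colours by subfamily. All 4 Cyp2a5 probes lie below 0 and all 9 Cyp2c probes above 0, and the 3 outlined probes are those whose groups did not overlap.

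Among inducing receptors, Nr1i3 and Nr1i2 were detected on all arrays. Nr1i3 had log2 intensities of 10.51, 10.44, 11.32 and 10.63 in wild type replicates 1 to 4 and 10.48, 10.65, 10.54 and 11.64 in knockout replicates 1 to 4. One array of each genotype, wild type replicate 3 and knockout replicate 4, stood above the rest, and the groups overlapped. The log2 change was 0.10 (SE 0.29, 95% interval -0.56 to 0.76, limma adjusted p = 0.917). Nr1i2 had 9.98, 9.78, 10.09 and 10.27 in wild type and 9.67, 9.75, 9.90 and 10.26 in knockout livers. Its groups overlapped as well, with a change of -0.14 (SE 0.15, interval -0.47 to 0.19, adjusted p = 0.745). A change of Nr1i3 of up to 1.69-fold therefore lies inside the interval. Ahr could not be compared, since its only probe was not above background.

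In the Cyp1 family only Cyp1a2, which oxidises caffeine and aromatic amines, was measured. Its probe ILMN_2739847 had 13.09, 13.20, 12.96 and 12.04 in wild type and 13.23, 12.88, 13.12 and 12.71 in knockout livers, a log2 change of 0.16 (SE 0.25). The second probe gave -0.044 (SE 0.16), so neither probe showed a difference beyond the spread between arrays (limma adjusted p = 0.827 and 0.936). Wild type replicate 4 was the lowest wild type array on both.

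Cyp2a5 had the smallest p of all members. It encodes the coumarin hydroxylase, also known for nicotine metabolism, and its neighbour Cyp2a4 is nearly identical, so that array probes may not tell the genes apart. Its 4 probes all lay below 0 in the knockout. Probe ILMN_3159131 had 14.26, 14.29, 14.26 and 14.33 in wild type and 13.96, 13.71, 14.10 and 14.07 in knockout livers. The genotypes did not overlap, the knockout values being lower, and the log2 change was -0.33 (SE 0.086, 1.25-fold lower, unadjusted p = 0.00253). Over all tested probes it did not pass (limma adjusted p = 0.111). Probe ILMN_3079804 likewise did not overlap, with 9.75 to 9.99 in wild type, 9.39 to 9.71 in knockout livers and a change of -0.30 (SE 0.12, adjusted p = 0.293). Probes ILMN_1229267 and ILMN_2734598 had -0.44 (SE 0.18, adjusted p = 0.329) and -0.42 (SE 0.18, adjusted p = 0.359). On both, knockout replicate 4 was at 12.68, inside the wild type range, while the other knockout arrays lay between 11.92 and 12.11. These 4 probes share a gene and 8 arrays and are not separate observations of the genotypes. ILMN_3159131 passed with median scaling (-0.40, limma adjusted p = 0.0498) and with array weights (-0.36, adjusted p = 0.0488), and ILMN_1229267 passed without Bgn knockout replicate 4 (-0.62, adjusted p = 0.04998). Leaving out single arrays gave -0.62 to -0.33 for ILMN_1229267 and -0.38 to -0.24 for ILMN_3159131. Without the 3 arrays with muscle transcripts, ILMN_3159131 had -0.19 (adjusted p = 0.713) and ILMN_3079804 had -0.14, a smaller change by more than 1.5 times. Cyp2a12, which hydroxylates steroids and bile acids in mice, had 0.045 (SE 0.076, interval -0.12 to 0.21), and its sign turned with median scaling (-0.046) and cyclic loess (-0.0020).

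The sequence before the start of Cyp2a5 is shown because this gene had the smallest p. The window is chr7:26835089-26835338 on the plus strand (RefSeq, GRCm38.p6), written 5′ to 3′, and capitals mark matches to searched motifs.
Cyp2a5: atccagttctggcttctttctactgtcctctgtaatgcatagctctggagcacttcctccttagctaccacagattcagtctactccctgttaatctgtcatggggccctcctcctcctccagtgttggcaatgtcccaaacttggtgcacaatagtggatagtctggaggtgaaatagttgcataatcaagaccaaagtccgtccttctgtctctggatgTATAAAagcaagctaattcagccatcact
The match is TATAAA, the TATA box, on the given strand, starting 29 bases before the annotated start.

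The genotypes also stood apart for Cyp2c29, which makes epoxides from arachidonic acid and is a known target of CAR. Probe ILMN_2769991 had 9.65, 10.28, 9.19 and 8.92 in wild type and 10.37, 10.60, 10.83 and 10.47 in knockout livers. The genotypes did not overlap, the knockout values being higher, though wild type replicate 2, at 10.28, was near the lowest knockout array, at 10.37. The log2 change was 1.05 (SE 0.26, interval 0.47 to 1.64, 2.07-fold higher), and it did not pass over all tested probes (unadjusted p = 0.00262, limma adjusted p = 0.113). It passed with median scaling (1.10, adjusted p = 0.0318) and without wild type replicate 2 (1.31, adjusted p = 0.00563), the wild type array nearest the knockout values. Leaving out single arrays gave 0.86 to 1.31. Without the 3 arrays with muscle transcripts the change was 0.95 (adjusted p = 0.609). The second Cyp2c29 probe was not above background on any array.

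The sequence before Cyp2c29 is shown because its groups did not overlap in the direction opposite to Cyp2a5. The window is chr19:39286835-39287043 on the plus strand (RefSeq, GRCm38.p6), up to the annotated start of the gene.
Cyp2c29: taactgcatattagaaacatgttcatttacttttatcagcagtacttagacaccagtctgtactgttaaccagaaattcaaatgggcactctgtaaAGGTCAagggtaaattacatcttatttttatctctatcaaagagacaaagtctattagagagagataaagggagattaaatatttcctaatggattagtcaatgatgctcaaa
Capitals mark AGGTCA, the core element that nuclear receptors bind, starting 113 bases before that start.

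The other Cyp2c genes, which lie with Cyp2c29 in a cluster on chromosome 19, had values on the same side. All 9 tested probes of 6 genes were above 0, with a median log2 change of 0.57 and a range of 0.054 to 1.32. Cyp2c70, which makes muricholic acids in mice, had 13.82, 13.86, 13.39 and 12.70 in wild type and 14.17, 14.34, 14.22 and 13.78 in knockout livers. Knockout replicate 4 alone lay within the wild type range, and the change was 0.68 (SE 0.27, 1.61-fold, limma adjusted p = 0.329), and 0.31 without the 3 arrays with muscle transcripts. Cyp2c55, a Cyp2c gene known for strong induction through CAR and PXR, had 9.18, 8.79, 6.13 and 6.90 in wild type and 9.72, 9.13, 9.76 and 7.65 in knockout livers. Its arrays spread widely within both groups, so that the change of 1.32, the largest among members, had an SE of 0.84 and an interval of -0.70 to 3.33.

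Cyp2c50 had 0.90 (SE 0.44) on ILMN_1245217, detected on 7 arrays, and 0.26 (SE 0.16) on ILMN_2996640. The first of these was 0.36 without background correction, 0.39 with the authors' normalized values and 0.45 without wild type replicate 4. Cyp2c67 had 0.57 (SE 0.33) on ILMN_3153624 and 0.054 (SE 0.11) on ILMN_3074610. The probes of these genes thus gave the same sign with different sizes. Both tested Cyp2c37 probes had 0.13 (SE 0.16 and 0.12), and a further Cyp2c37 probe, detected on 3 arrays, was not tested. Wild type replicate 4, an array with muscle transcripts, was the lowest wild type array on 8 of the 9 Cyp2c probes, and without it 7 of 9 were above 0 with a median of 0.32. With array weights, without Bgn knockout replicate 1, and without the 3 arrays with muscle transcripts it was 8 of 9 (median 0.29 in the last case). Near-identical relatives such as Cyp2c37 and Cyp2c50 may share signal on these probes.

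Cyp2b genes, the classic phenobarbital-inducible members, lie on chromosome 7 near Cyp2a5. Cyp2b10, the usual readout of CAR, had 10.84, 10.37, 9.73 and 9.26 in wild type and 10.72, 10.66, 10.75 and 11.56 in knockout livers. Knockout replicate 4 was highest and wild type replicate 1 lay within the knockout range. The log2 change was 0.87 (SE 0.36, 1.83-fold, interval 0.045 to 1.70, limma adjusted p = 0.35). A second Cyp2b10 probe was detected on 3 arrays and was not tested. Cyp2b13, known as female-biased, was dim, with 5.51, 5.32, 4.44 and 4.84 in wild type, where 2 arrays detected it, and 6.30, 6.14, 5.30 and 6.07 in knockout livers, where 4 did. The groups overlapped, and its change was 0.92 (SE 0.28, unadjusted p = 0.00668, adjusted p = 0.178), and it was 0.30 without background correction. Its entry to the test depended on the knockout arrays, the group where it was higher, and it is counted in the shares above. Cyp2b23 had 0.72 (SE 0.43), which was 0.40 without background correction and 0.39 without Bgn knockout replicate 4. Cyp2b9, also female-biased, had 9.22, 9.22, 7.39 and 8.49 in wild type and 9.25, 8.09, 6.70 and 9.20 in knockout livers, a change of -0.27 with an SE of 0.70. Over the 4 tested Cyp2b probes 3 were above 0, and 0 passed.

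The sequence before Cyp2b10 is shown as that of the standard CAR target. The window is chr7:25897408-25897657 on the plus strand (RefSeq, GRCm38.p6).
Cyp2b10: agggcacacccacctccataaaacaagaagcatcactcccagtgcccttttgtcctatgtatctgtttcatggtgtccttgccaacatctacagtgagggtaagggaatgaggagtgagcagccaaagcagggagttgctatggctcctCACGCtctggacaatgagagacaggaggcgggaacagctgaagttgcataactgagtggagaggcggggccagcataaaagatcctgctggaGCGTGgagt
Capitals mark GCGTG, the core of the element bound by Ahr, which was found on both strands, starting 101 and 9 bases before the annotated start. For the shares of motifs, windows of 250 bases before each listed start were searched for 41 member genes (44 windows), that of Cyp2c29 at this full length and not at the 209 bases printed. TATAAA on the given strand was present in 31.8% of these windows and in 7.59% of all 32851. AGGTCA on either strand was present in 29.5% against 14.0%, and GCGTG on either strand in 13.6% against 28.2%. TTATGTAA, a form of the element of Dbp and its relatives, was in 0 of 44 and in 0.819% of all windows. Only these exact letters were searched and they are rare, so 0 of 44 does not show that such elements are absent. A match of letters is a description and shows no binding.

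**Figure D3:**
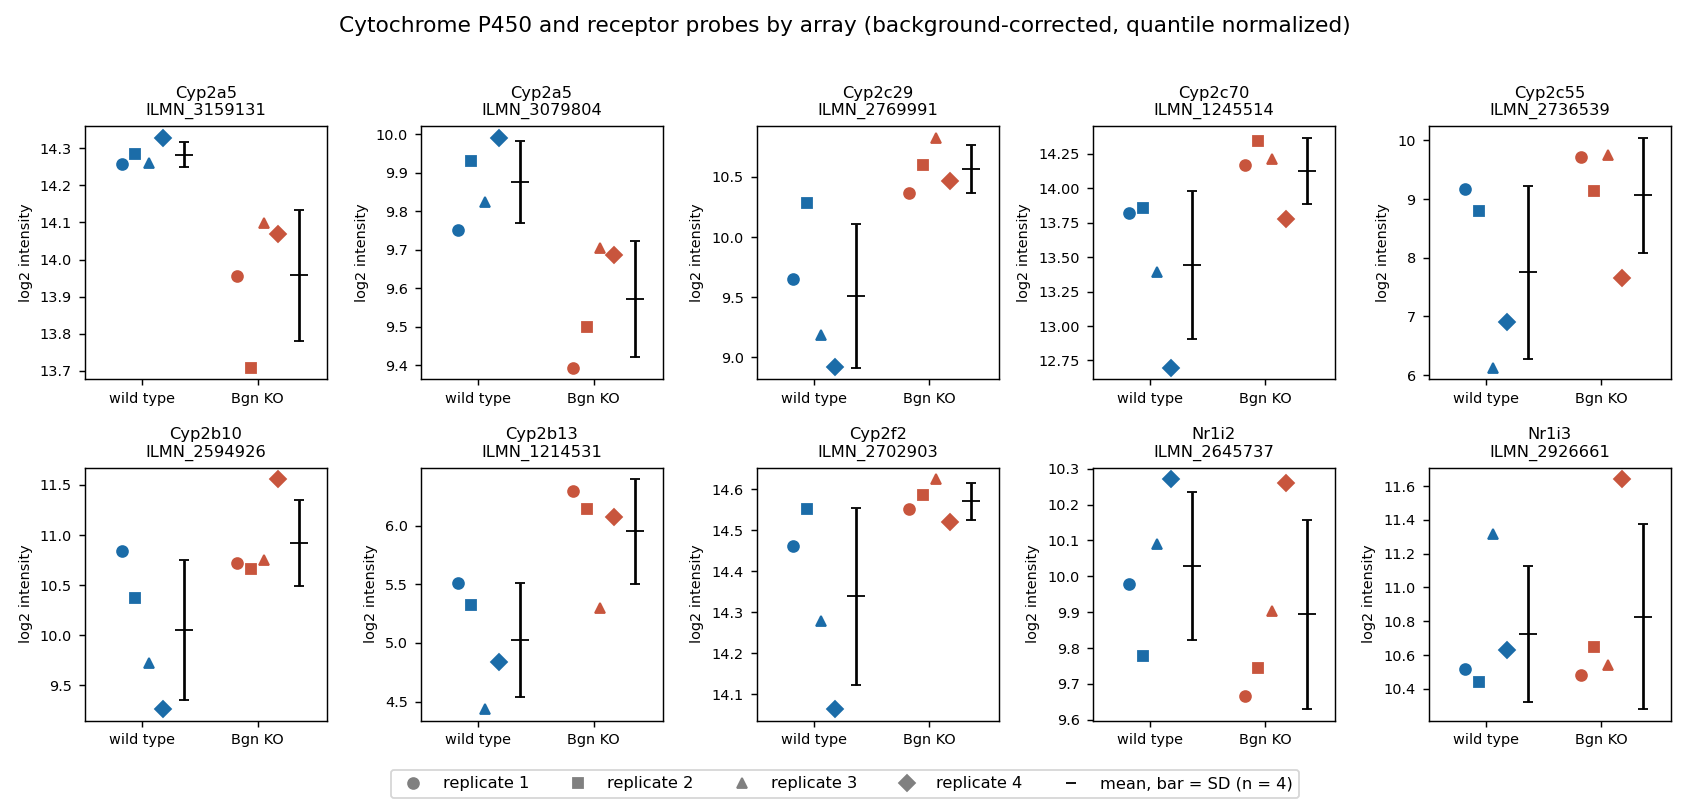
Log2 intensity (vertical axis) of 10 probes on each array, wild type in blue and Bgn knockout in red, with a symbol for each replicate number and the mean with SD (n = 4). The groups do not overlap for both Cyp2a5 probes shown and for Cyp2c29, and they overlap for the other 7. The Cyp2a5 probes ILMN_1229267 and ILMN_2734598, whose groups overlap, are not shown.

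Cyp2d enzymes, relatives of the human debrisoquine hydroxylase, had small differences, and 0 of 8 tested probes passed. Cyp2d22 had 0.18 (SE 0.079, unadjusted p = 0.0457, limma adjusted p = 0.363), with 13.32 to 13.51 in wild type and 13.46 to 13.71 in knockout livers. Cyp2d26 had 0.34, 0.32 and 0.15 on its 3 probes (SE 0.28, 0.31 and 0.11). Its probe ILMN_2642975 had 12.00, 11.92, 12.61 and 11.54 in wild type and 12.40, 12.35, 11.77 and 12.93 in knockout livers, so the arrays differed more within a genotype than the means did between them. Cyp2d40 had 0.29 (SE 0.18), which was 0.079 without wild type replicate 4, and Cyp2d13 had -0.19 (SE 0.16). Cyp2d10 and the male-biased steroid hydroxylase Cyp2d9 had -0.055 (SE 0.082) and 0.045 (SE 0.075), with intervals of -0.23 to 0.12 and -0.12 to 0.21, and the sign of Cyp2d9 turned with median scaling (-0.11).

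Cyp2e1, which oxidises ethanol and acetaminophen in the central zone, had 14.80, 14.89, 14.94 and 14.94 in wild type and 14.88, 14.89, 14.86 and 14.92 in knockout livers. The change was -0.0074 (SE 0.057, interval -0.13 to 0.12). Before normalization, its deposited intensities were 29871 to 33672 in wild type and 29113 to 29812 in knockout livers. These deposited values did not overlap, the knockout values being lower. With cyclic loess the change was -0.12, and with median scaling it was -0.19 (limma adjusted p = 0.401). Quantile normalization sets the brightest probes to nearly the same values on every array, which can make the interval above too narrow. Cyp2f2, a naphthalene-oxidising enzyme of the portal zone, had 14.46, 14.55, 14.28 and 14.06 in wild type and 14.55, 14.59, 14.62 and 14.52 in knockout livers. The knockout arrays were close together and near the highest wild type arrays, with a change of 0.23 (SE 0.095, unadjusted p = 0.0314, limma adjusted p = 0.321). That change was 0.085 with median scaling, 0.14 with cyclic loess and 0.14 without wild type replicate 4.

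Of the smaller subfamilies, Cyp2j9, of a group that makes epoxides from arachidonic acid, had 8.21, 8.10, 8.73 and 9.48 in wild type and 8.01, 8.39, 7.84 and 8.40 in knockout livers. Its change of -0.47 (SE 0.28, limma adjusted p = 0.508) was the lowest among members and was -0.19 without wild type replicate 4. Cyp2u1, a fatty acid hydroxylase, had 0.30 (SE 0.28), and Cyp2s1 had 0.036 (SE 0.20). The 2 probes of Cyp2g1 had 0.21 (SE 0.36) and -0.033 (SE 0.39).

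In the Cyp3a group, Cyp3a11, the main hepatic Cyp3a enzyme of mice and a PXR target, had 14.69, 14.50, 14.71 and 14.55 in wild type and 14.78, 14.77, 14.65 and 14.68 in knockout livers. The change was 0.11 (SE 0.068, interval -0.039 to 0.26, limma adjusted p = 0.519), and its sign turned with median scaling (-0.062) and cyclic loess (-0.0025). Cyp3a25 had 0.16 (SE 0.099). The 3 probes of Cyp3a13 gave 0.58, 0.11 and -0.013 (SE 0.49, 0.27 and 0.16). The female-biased Cyp3a16, Cyp3a41a and Cyp3a44 were not above background on any of these arrays from male mice.

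Wild type replicate 3 and knockout replicate 4 were both the highest arrays of their groups for 12 of 42 tested probes (28.6%), against 13.7% of the other tested probes. On 1 of the 12, that of Cyp2e1, wild type replicate 3 was tied with wild type replicate 4 at 14.94. These 12 were all 3 probes of Cyp2d26, all 3 of Cyp3a13, 2 of Cyp2a5, 1 of 2 of Cyp2g1, and the single probes of Cyp2d9, Cyp2e1 and Nr1i3, so that several are repeat probes of 1 gene, and the other 30 probes did not share the pattern. On Cyp3a13 probe ILMN_2693314, for example, these arrays were at 8.79 and 9.04 and the other 6 between 6.74 and 8.15. Wild type replicate 4 was the lowest wild type array for 22 of 42 member probes (52.4%), against 32.3% of the other tested probes. Its muscle markers were high, and the part of that tissue was not tested. Of the knockout arrays with muscle signal, replicate 2 was the lowest of its group for 7 of 42 (16.7%, against 24.7% of the other tested probes) and replicate 1 for 11 (26.2%, against 20.5%). Knockout replicate 3, without that signal, was the lowest for 17 (40.5%, against 23.8%). These array shares were noticed in the data and are a description.

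**Figure D4:**
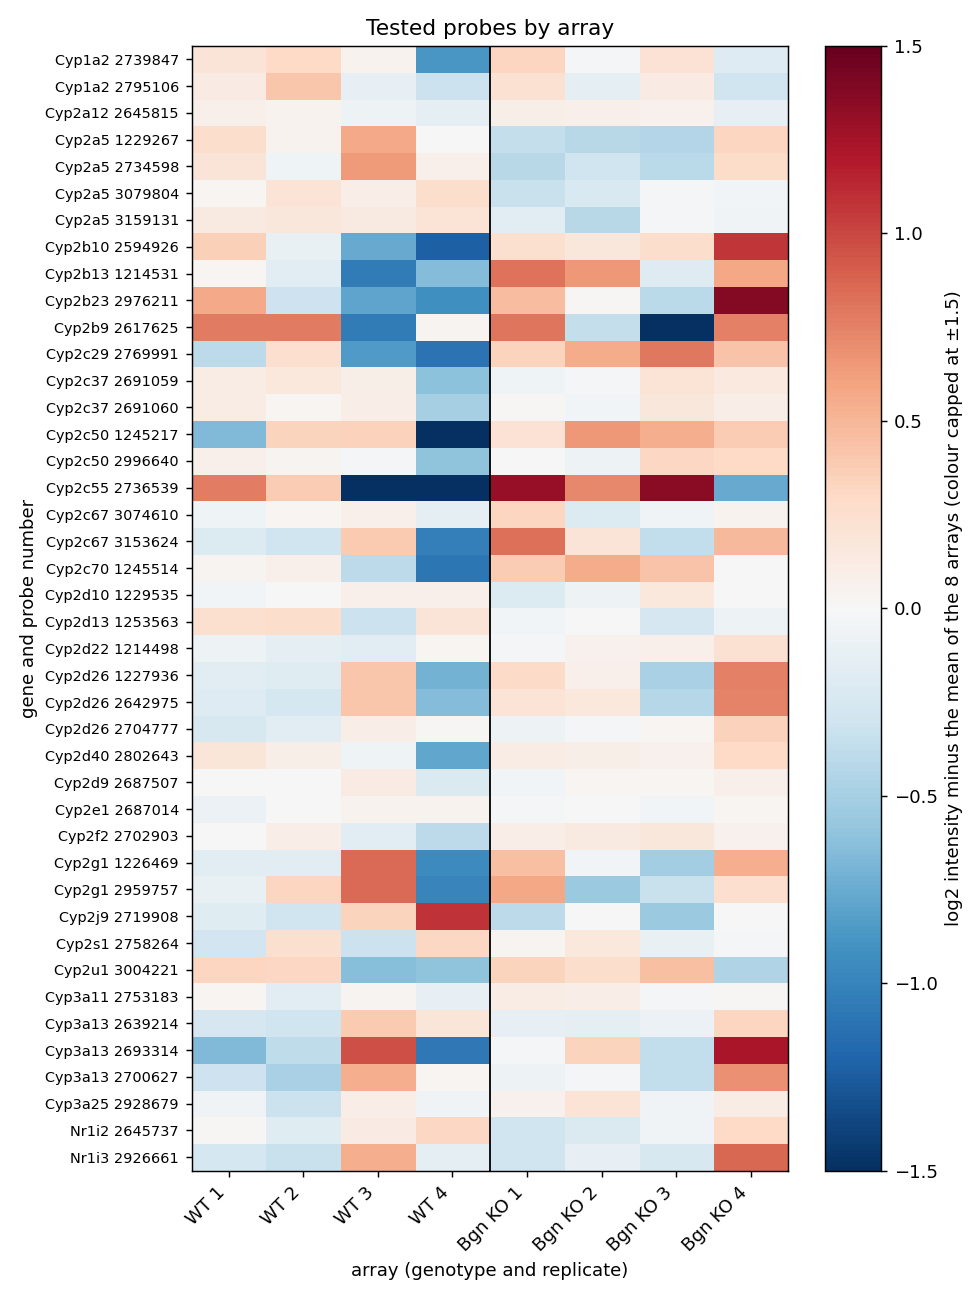
Log2 intensity of each tested probe (rows) on each array (columns) minus the mean of the 8 arrays of that probe, red above and blue below, capped at 1.5. Wild type replicate 4 is low for most Cyp2c probes, and wild type replicate 3 and Bgn knockout replicate 4 are high for Cyp2d26, Cyp3a13 and Nr1i3.

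By location in the lobule, 8 members known as central were tested, with 5 above and 3 below 0 by their brightest probe and a median of 0.11, against -0.0030 over all genes. The 1 tested member known as portal, Cyp2f2, was above 0 as well, at 0.23. Of members known as female-biased, 4 were tested, 2 above and 2 below 0. Both tested male-biased members, Cyp2d9 and Cyp2u1, were above 0. None of these passed.

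Genes that serve the P450 enzymes held 1 change in heme turnover. Hmox2, the constitutive heme oxygenase, had 9.96, 9.90, 10.18 and 9.82 in wild type and 8.73, 8.61, 8.95 and 9.48 in knockout livers, all knockout arrays below all wild type arrays. It fell by 1.02 on the log2 scale (SE 0.18, 2.03-fold lower, limma adjusted p = 0.0154). Leaving out 1 array ended this call for 5 of the 8 arrays, wild type replicates 1 and 3 and Bgn knockout replicates 1, 2 and 3 (adjusted p = 0.0552, 0.0613, 0.0569, 0.0718 and 0.0543). In these 5 fits of fewer arrays the log2 change lay between -1.02 and -0.91. The call also ended with the replicate number as a block (adjusted p = 0.0637) and without the 2 (0.104) or 3 (0.306) arrays with muscle transcripts. The other 10 tested genes of heme synthesis and breakdown did not pass, and the list's median was -0.070. Alad, an early enzyme of heme synthesis, had 0.49 (SE 0.15, adjusted p = 0.194; 0.62 and 0.0453 without Bgn knockout replicate 4), and Alas1, its rate-limiting enzyme, had -0.31 (SE 0.30).

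Among 5 tested electron transfer partners 0 passed and 4 were above 0. Pgrmc1, a heme-binding partner of P450 enzymes, had 11.27, 11.36, 11.25 and 10.94 in wild type and 11.52, 11.93, 11.77 and 11.72 in knockout livers. Its groups did not overlap, with a change of 0.53 (SE 0.12, limma adjusted p = 0.0674). The change of Pgrmc1 was 0.38 without the 2 arrays with the most muscle transcripts (adjusted p = 0.350). It was 0.45 without the 3 such arrays (adjusted p = 0.406). Cyb5a had 0.12 (SE 0.098). Of 11 tested partners of the receptors 0 passed and 9 were below 0 (median -0.11), with -0.61 (SE 0.22, adjusted p = 0.258) for Foxa2 and -0.33 (SE 0.16) for Cebpa. Without background correction Foxa2 had -0.37 and Cebpa -0.26. The second Foxa2 probe was not detected on any array. Rxra, the partner of CAR and PXR, had -0.0031 (SE 0.20).

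Of 10 tested other targets of CAR and PXR 0 passed, 5 were above and 5 below 0 (median -0.017). The aldehyde dehydrogenase Aldh1a1 had 0.51 (SE 0.13, limma adjusted p = 0.104), with 11.72 to 12.38 in wild type and 12.56 to 12.75 in knockout livers. Its change was 0.41 without the 2 arrays with the most muscle transcripts (adjusted p = 0.148) and 0.44 without the 3 such arrays (adjusted p = 0.322). The export pump Abcc2 had -0.76 (SE 0.26, adjusted p = 0.25) on its brightest probe, which passed without wild type replicate 2 (-0.99, adjusted p = 0.0456). Its other tested probe had -0.67 (adjusted p = 0.223) and did not pass without that array (-0.74, adjusted p = 0.243). Without background correction this dimmer probe had -0.33, and the brightest Abcc2 probe had -0.70. Of 4 tested other Ahr targets 0 passed, 2 were above and 2 below 0. Nfe2l2 had -0.60 (SE 0.19), Nqo1 -0.51 (SE 0.23), Ugt1a6a 0.44 (SE 0.43) and Ahrr 0.19 (SE 0.25). The Nfe2l2 and Nqo1 probes were dim, and without background correction they had -0.25 and -0.17. The second probes of Nfe2l2 and Nqo1 were not detected on any array. Of the transcription factors of the clock's output that are known to drive Nr1i3 and several Cyp genes, Dbp and Tef fell by 3.53 and 1.31 on the log2 scale (limma adjusted p = 8.01e-07 and 0.00177), while Hlf was not above background. Without the 3 arrays with muscle transcripts Tef had -1.05 (adjusted p = 0.127), while Dbp passed under all alternatives run. Beside them stand the values of Nr1i3 (0.10), Cyp2b10 (0.87) and Cyp2a5 (-0.33 on its brightest probe), none of which passed. Whether the fall of Dbp and Tef bears on these or other members was not tested.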

How the data were processed

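Liver RNA of 8 mice was biotin-labelled for Illumina bead arrays, per the labels' protocols. Per the file headers, the authors deposited linear intensity values that were not normalized between arrays, each beside its detection p-value. They also deposited normalized intensities, by a method not given in the sources used here. Versions in the submitters' processing notes are R 2.15.0 and lumi 2.10.0.

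The unnormalized intensities were corrected and quantile normalized with neqc (normexp, offset 16) in limma 3.58.1 (R 4.3.3). Probes with a detection p under 0.05 on at least 4 arrays were tested with lmFit and eBayes (trend, robust), and p-values were Benjamini-Hochberg adjusted over all 11494 tested probes (8105 genes). Symbols come from the platform table, and all 48 member genes matched GRCm38.p6 by Entrez number. Levels are means ± SD over 4 arrays. Named were all tested members and, from each supporting list other than the cell type markers, the called genes or up to 2 with the smallest p. Alad, Alas1, Rxra, Hlf, Ugt1a6a and Ahrr were added after their values were seen. The cell type markers Ttr, Apoa1, Pck1, Serpina1a, Alb, Acta1, Slc4a1, Lyve1 and Rgs5 were named without a fixed rule. The members and lists were chosen with earlier results of these data known. Whether mice were littermates or handled together is not stated. The fit was tested on simulated data. Alternatives covered background, normalization, filter, variance model, weights, the replicate number as a block, the mean over probes and leaving out arrays. Figures were drawn with matplotlib 3.10.9 (Python 3.11.15).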

Additional observations from a re-analysis of the deposited data

Results flagged for a closer look

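Each genotype's 4 values of every tested member probe were screened with Dixon's ratio at its 95% critical value, for a single array lying apart. Of 84 groups of tested member probes, 10 met this, against 4.2 expected by chance at 1 in 20, and the probes are not independent of each other.

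Of these, 5 are high values on Bgn knockout replicate 4. The log2 intensity there was 11.64 for Nr1i3 (others 10.48 to 10.65), 11.56 for Cyp2b10 (others 10.66 to 10.75), 13.06 for Cyp3a13 on ILMN_2639214 (others 12.60 to 12.66), and 12.68 for Cyp2a5 on both ILMN_1229267 (others 11.92 to 12.00) and ILMN_2734598 (others 12.00 to 12.11). On the same array Cyp2a12 was low at 13.99 (others 14.17 to 14.20).

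On wild type replicate 4, Cyp2c37 was low at 13.37 on ILMN_2691059 (others 14.08 to 14.14) and 13.45 on ILMN_2691060 (others 13.97 to 14.05), and Cyp2c50 was low at 13.03 (others 13.61 to 13.71). Cyp2d13 was low on wild type replicate 3 at 7.42 (others 7.93 or higher).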

How the results depend on the processing

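The count of 0 member probes past the threshold became 2 with median scaling and 1 with array weights, and it lay between 0 and 1 when single arrays were left out. Cyp2a5 passed at -0.40 with median scaling and -0.36 with array weights on ILMN_3159131, and at -0.62 without Bgn knockout replicate 4 on ILMN_1229267. Cyp2c29 passed at 1.10 with median scaling and 1.31 without wild type replicate 2. Over all probes 127 passed, against 197 with array weights and 64 with the replicate number as a block. Without the 2 arrays with the most muscle transcripts 48 passed, and without the 3 such arrays 25, settings chosen after seeing the data that use fewer arrays. Leaving out single arrays gave 59 to 121, with 62 and 67 when wild type replicate 1 or 3 was left out, and 81, 59 and 68 when the array left out was Bgn knockout replicate 1, 2 or 3. Same-numbered arrays did not deviate together (r between -0.30 and 0.057 over tested probes, and no wild type array correlated best with its own number), so the numbers are not taken as pairs, and under the block 0 member probes passed (smallest limma adjusted p = 0.0696). Of 42 tested member probes, 24 kept the sign of their log2 change under all alternatives in which they could be fitted, and 59 values of the other 18 turned sign, 0 of them past the threshold. With array weights, the values were -0.023 for Cyp2c37 ILMN_2691059, 0.0045 for Cyp2e1 and 0.033 for Cyp3a13 ILMN_2639214. With the authors' normalized values, the values were -0.0045 for Cyp2d9 and 0.0016 for Cyp3a13 ILMN_2639214. With cyclic loess, the values were -0.0020 for Cyp2a12, -0.053 for Cyp2d9, -0.0025 for Cyp3a11 and 0.0042 for Cyp3a13 ILMN_2639214. As means over the probes of a gene, set against the brightest probe, the values were 0.060 for Cyp1a2 ILMN_2795106, 0.088 for Cyp2g1 ILMN_2959757 and 0.22 for Cyp3a13 ILMN_2639214. With median scaling, the values were -0.046 for Cyp2a12, -0.11 for Cyp2d9, 0.0032 for Cyp2g1 ILMN_2959757 and -0.062 for Cyp3a11. Without the 2 arrays with high muscle transcripts, the values were -0.067 for Cyp1a2 ILMN_2739847, -0.010 for Cyp2a12, -0.023 for Cyp2c37 ILMN_2691059, -0.021 for Cyp2d9, 0.0054 for Cyp2e1, -0.020 for Cyp2g1 ILMN_1226469 and 0.092 for Cyp3a13 ILMN_2639214. Without the 3 arrays with high muscle transcripts, the values were -0.18 for Cyp1a2 ILMN_2739847, -0.050 for Cyp2a12, -0.013 for Cyp2c67 ILMN_3074610, 0.073 for Cyp2d10, 0.010 for Cyp2e1, -0.16 for Cyp2g1 ILMN_1226469, 0.18 for Cyp3a13 ILMN_2639214 and 0.14 for Nr1i2. Leaving out single arrays, the ranges that crossed 0 were -0.10 to 0.29 for Cyp1a2 ILMN_2739847, -0.16 to 0.088 for Cyp1a2 ILMN_2795106, -0.67 to 0.26 for Cyp2b9, -0.054 to 0.20 for Cyp2c37 ILMN_2691059, -0.014 to 0.19 for Cyp2c37 ILMN_2691060, -0.044 to 0.13 for Cyp2c67 ILMN_3074610 and -0.12 to 0.0025 for Cyp2d10. They were also -0.018 to 0.093 for Cyp2d9, -0.035 to 0.0087 for Cyp2e1, -0.071 to 0.53 for Cyp2g1 ILMN_1226469, -0.37 to 0.24 for Cyp2g1 ILMN_2959757, -0.067 to 0.14 for Cyp2s1, -0.12 to 0.12 for Cyp3a13 ILMN_2639214, -0.11 to 0.31 for Cyp3a13 ILMN_2700627 and -0.17 to 0.30 for Nr1i3. Some ranges stayed on 1 side of 0 but had an end that differed by over 1.5 times from the value with all arrays. These were 0.0061 to 0.092 for Cyp2a12, -0.58 to -0.27 for Cyp2a5 ILMN_2734598, 0.39 to 1.03 for Cyp2b23, 0.45 to 1.17 for Cyp2c50 ILMN_1245217, 0.10 to 0.33 for Cyp2c50 ILMN_2996640, 0.77 to 1.79 for Cyp2c55, 0.32 to 0.79 for Cyp2c67 ILMN_3153624, 0.44 to 0.82 for Cyp2c70 and -0.33 to -0.14 for Cyp2d13. The others were 0.12 to 0.54 for Cyp2d26 ILMN_1227936, 0.15 to 0.54 for Cyp2d26 ILMN_2642975, 0.053 to 0.20 for Cyp2d26 ILMN_2704777, 0.079 to 0.40 for Cyp2d40, 0.14 to 0.30 for Cyp2f2, -0.65 to -0.19 for Cyp2j9, 0.14 to 0.50 for Cyp2u1, 0.27 to 0.997 for Cyp3a13 ILMN_2693314, 0.084 to 0.22 for Cyp3a25 and -0.26 to -0.056 for Nr1i2. The causes were not tested. The chip as a block was not run, since the columns name no chips. Signal over background limits dim probes such as Cyp2b13, and 18 member probes were not detected on any array.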
